A study of Mus musculus with 16 samples.

Results

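Fkbp5, Tsc22d3, Zbtb16, Ddit4, Pdk4, Sgk1, Mt1, Mt2, Klf9 and Cebpd are genes that glucocorticoid hormones are known to induce, and their transcripts were followed in mouse bone after a single estrogen treatment. They were taken as every probe set whose platform gene symbol was 1 of these 10, which gave 25 of the 45101 probe sets on the array and 10 of the 12735 genes that were tested. Klf9 had 7 probe sets, Tsc22d3 had 4, Fkbp5 and Zbtb16 had 3 each, Mt1 and Cebpd had 2 each, and the other four genes had 1 each. All 10 genes passed the filter on low signal. RNA was extracted from the distal 5 mm of 1 femur, the left, in 16 ovariectomized C57BL/6 females, each given 1 array without pooling, so the spread within a group is the spread between mice. The groups of 4 mice were knockout mice with estrogen, knockout mice with vehicle, wild-type mice with estrogen and wild-type mice with vehicle, and bone was taken 4 hours after treatment. In the knockout mice the gene of estrogen receptor alpha was deleted in osteoclasts, which break down bone. The sources used here give neither the Cre line nor the age of the mice, and neither the estrogen used nor its dose. Ovariectomy, which removes the main source of estrogen, was common to all groups.

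Glucocorticoids such as corticosterone bind the glucocorticoid receptor, which is held in the cytoplasm by Hsp90 and its co-chaperones, moves to the nucleus and binds DNA as a dimer. The receptor acts in nearly every cell type of bone and marrow, and glucocorticoid excess is a well-known cause of bone loss. Fkbp5 encodes a co-chaperone that lowers the affinity of the receptor for its hormone and so closes a feedback loop, while the other genes cover inflammation, fuel use, growth signalling and metal binding.

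The metallothionein genes Mt1 and Mt2 are also induced by zinc through the factor MTF-1, so promoter windows were read for both kinds of element. RefSeq windows of the GRCm38.p6 build, from 250 bases before a transcript start to 50 bases after it, matched 8 of the 10 genes with 15 windows, and Zbtb16 and Cebpd had none in the table used. The palindromic glucocorticoid element, AGAACA and TGTTCT separated by 3 bases of any kind, was found in 3 of 32851 windows of all genes (0.00913%), counting both strands, and 1 of them belonged to Sgk1. The palindromic estrogen element, GGTCA and TGACC separated by 3 bases of any kind, was found in 23 windows (0.07%) and in 0 of the 15 windows of the 10 genes. The metal element was searched as TGCACNC, present in 12.6% of windows, and as TGCGCNC, present in 15.4%, and 1.97% of windows held 3 or more matches of both spellings together. Mt2 held 4 such matches and Mt1 held 3. Ddit4 and another Sgk1 window held 1 metal match each. The Sgk1 window with the glucocorticoid element and the windows of Mt2 and Mt1, with 3 or more metal matches, are shown 5′ to 3′ on the gene's strand, with matches in capitals. They lie at chr10:21993640-21993939 (Sgk1, 1 of its 6 windows), chr8:94172368-94172667 (Mt2) and chr8:94178839-94179138 (Mt1), all on the plus strand.
Sgk1: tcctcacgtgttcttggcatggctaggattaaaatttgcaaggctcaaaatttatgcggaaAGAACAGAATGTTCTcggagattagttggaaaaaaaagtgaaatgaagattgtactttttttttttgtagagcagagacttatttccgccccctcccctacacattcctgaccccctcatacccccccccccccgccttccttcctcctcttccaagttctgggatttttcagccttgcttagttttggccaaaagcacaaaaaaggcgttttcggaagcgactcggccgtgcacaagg
Mt2: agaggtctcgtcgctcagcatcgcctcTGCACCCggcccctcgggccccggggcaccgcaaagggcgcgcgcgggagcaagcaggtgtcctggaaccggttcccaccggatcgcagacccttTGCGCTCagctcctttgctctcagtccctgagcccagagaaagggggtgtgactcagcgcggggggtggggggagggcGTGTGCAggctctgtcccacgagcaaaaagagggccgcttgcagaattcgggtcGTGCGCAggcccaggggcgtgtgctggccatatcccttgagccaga
Mt1: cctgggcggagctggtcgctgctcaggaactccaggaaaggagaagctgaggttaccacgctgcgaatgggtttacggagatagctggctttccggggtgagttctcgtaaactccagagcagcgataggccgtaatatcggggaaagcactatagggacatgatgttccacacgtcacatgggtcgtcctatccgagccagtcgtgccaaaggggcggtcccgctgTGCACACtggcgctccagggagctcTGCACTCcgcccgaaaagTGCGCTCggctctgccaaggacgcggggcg
The match in Sgk1 began 189 bases before the start of that transcript. In Mt2 the matches began 223, 128 and 50 bases before the start and at base 5 after it, and in Mt1 they began 23 bases before the start and at bases 3 and 21 after it. A match describes the letters only.

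Signals below are the deposited linear array intensities, and differences are given as log2(signal + 16), each with its standard error (SE), a scale that understates the change of dim probe sets. All arrays shared a 2% trimmed mean of 500. Tests were limma fits over all 16 arrays, and adjusted p-values were taken over all 12735 genes by the Benjamini-Hochberg method with a threshold of 0.05. The 18 skeletal muscle genes used as markers summed to 5188 to 45286 in replicates 3 and 4 of the groups and to 107802 to 868911 in replicates 1 and 2, and the 8 measured adipocyte genes to 12987 to 24240 and to 25611 to 92130, so the arrays fall into 2 replicate sets whose origin the labels do not give. Knockout estrogen replicate 1, wild-type estrogen replicate 2 and wild-type vehicle replicate 2 carried the highest spike-in signals, at 11957, 14503 and 25112 beside 2933 to 4984 elsewhere, and Actb 3′ to 5′ ratios of 2.07, 2.44 and 3.53 beside 1.17 to 1.5. In bulk bone, fewer cells of a type and less RNA per cell cannot be told apart, and the many other cells of bone and marrow dilute what happens in osteoclasts. Esr1, the gene of the deleted receptor, gave 753, 513, 484 and 409 in knockout mice with estrogen, against 580, 627, 723 and 617 in knockout mice with vehicle, and 475, 456, 434 and 664 in wild-type mice with estrogen, against 792, 876, 1100 and 1011 in wild-type mice with vehicle. Esr1 was thus lower in every knockout vehicle mouse than in every wild-type vehicle mouse (log2 difference −0.55, adjusted p = 0.95), with an overlap after estrogen (0.07, adjusted p = 0.985). The sources used here do not say whether the Esr1 probe set lies inside the deleted part.

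Most of the 10 genes stood higher 4 hours after estrogen in both genotypes, by amounts that the spread between mice could not separate from 0 after adjustment. The difference was above 0 for 9 of 10 genes in the knockout and for 10 of 10 in wild type, while 51.4% and 47.8% of all genes were above 0 there. Several of the 10 genes followed each other over the arrays, so they do not count as independent. Within replicates 3 and 4, the knockout difference was −0.065 for Tsc22d3, −0.067 for Pdk4, −0.211 for Sgk1 and −0.293 for Cebpd, and Cebpd was at −0.342 in wild type. Within replicates 1 and 2, Ddit4 was at −0.010 in the knockout, and Zbtb16 at −0.369 and Klf9 at −0.346 in wild type. The median log2 difference over the 10 genes was 0.50 in the knockout and 0.46 in wild type, beside medians of 0.01 and −0.01 over all genes. The wild-type median ranged over 0.29 (without vehicle replicate 4) to 0.74 (without vehicle replicate 2) with 1 array left out. Over the average of both genotypes Fkbp5, Mt1 and Mt2 had the smallest p-values of the 10, and Cebpd and Sgk1 lay nearest to 0. None of the 10 genes passed the adjusted threshold in limma in either genotype or in their average, where 0%, 0% and 0.0157% of all genes were called. At an unadjusted limma p under 0.05, Mt1 and Klf9 were higher in the knockout (2 of 10, with 1.66% of all genes), Fkbp5, Mt1 and Mt2 in wild type (3 of 10, with 3.88%), and these genes again over the average of both genotypes (3 of 10, with 2.48%). With the replicate number as a block the counts were 4 in the knockout, where Zbtb16 and Mt2 joined, with 3.12% of all genes higher in that fit, and 5 for the average, where Zbtb16 and Klf9 joined, with 3.24%. The replicate set as a term gave the same 4 and 5, with 3.34% and 3.42% of all genes. The difference was above 0 for all 10 genes in the average (48.6% of all genes), with a median of 0.57 beside −0.01 over all genes. Without knockout estrogen replicate 1 the median of the average was 0.33, and without wild-type estrogen replicate 3 as well it was 0.275.

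Of the marker lists of other cell types, the 4 given below leaned one way with estrogen in both genotypes, with 0 of their genes passing the adjusted threshold in limma. Other lists leaned less or differed by genotype. Osteoclast genes were above 0 for 7 of 10 in the knockout and 6 of 10 in wild type, and osteoblast and osteocyte genes for 7 and 4 of 9. Endothelial genes were above 0 for 6 and 4 of 8, monocyte and macrophage genes for 4 and 3 of 7, and erythroid genes for 2 of 6 in each genotype. The medians of the 7 tested adipocyte genes were 0.38 in the knockout and −0.78 in wild type. Of 9 tested B lymphocyte genes, 8 were below 0 in the knockout (median −0.64) and 9 in wild type (median −0.90). Lower at an unadjusted limma p under 0.05 in the average were 6 of them, beside 466 of all 12735 genes. The summed B lymphocyte signal was 4703 to 10221 in knockout mice with estrogen, against 6202 to 24332 in knockout mice with vehicle. It was 3230 to 17692 in wild-type mice with estrogen, against 11815 to 16559 in wild-type mice with vehicle. Of 10 cartilage genes, 9 were below 0 in the knockout (median −0.60) and 10 in wild type (median −0.63). Of 11 neutrophil genes, 9 were above 0 in each genotype (medians 0.15 in the knockout and 0.27 in wild type). In the average 4 were higher at an unadjusted limma p under 0.05, with 2.48% of all genes. Of 7 T lymphocyte and NK cell genes, 6 were below 0 in the knockout (median −0.53) and 5 in wild type (median −0.34), and 3 were lower in the average at that p. Summed cartilage signals were 10703 to 84756 in knockout mice with estrogen, against 31706 to 43710 with vehicle, and 16675 to 27524 in wild-type mice with estrogen, against 16811 to 65991 with vehicle. Summed neutrophil signals were 263556 to 423149 in knockout mice with estrogen, against 231487 to 345447 with vehicle, and 285647 to 732218 in wild-type mice with estrogen, against 236236 to 650712 with vehicle. The ranges of these 3 sums overlapped between estrogen and vehicle in both genotypes, and the part of these cell types in the values of the 10 genes was not tested.

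**Figure D1:**
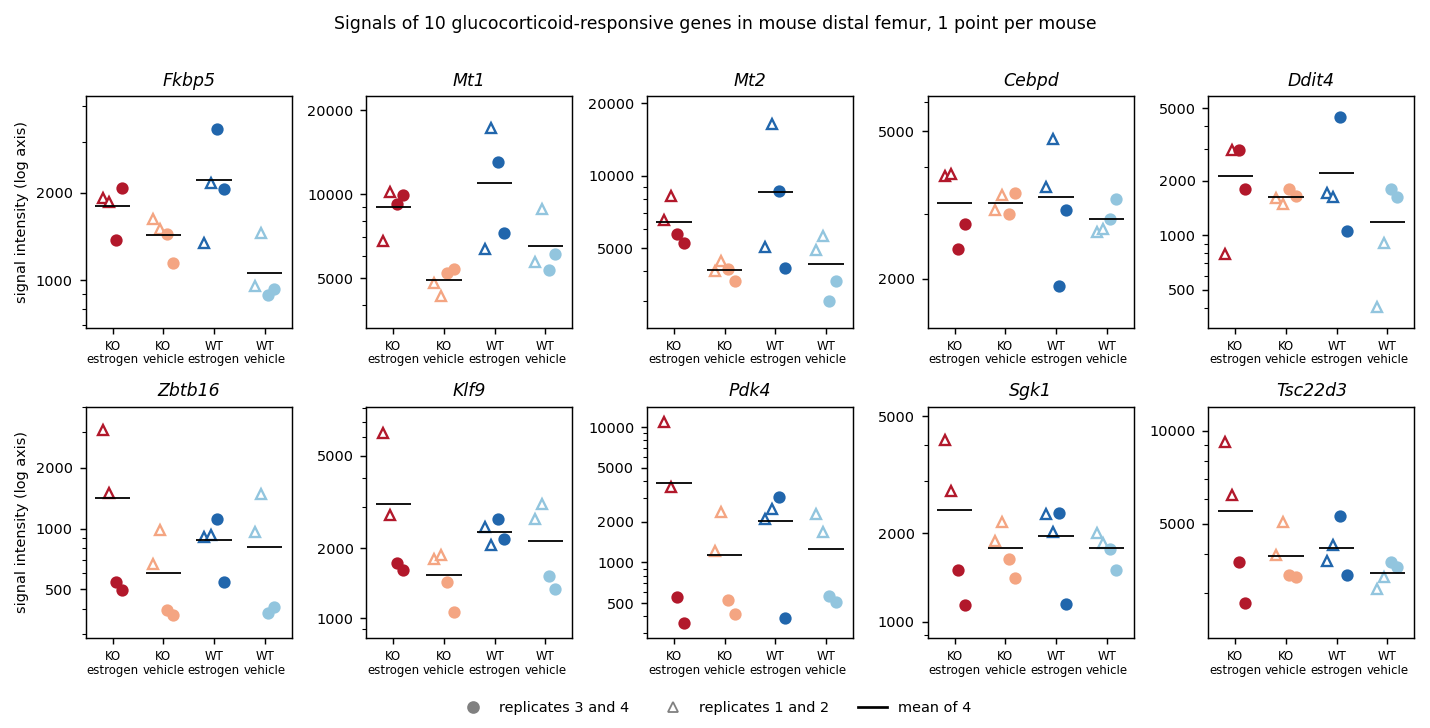
Signal intensity (log axis) of the representative probe set of each of the 10 genes, with 1 point per mouse, in knockout (KO) and wild-type (WT) mice with estrogen or vehicle. Filled circles are replicates 3 and 4, open triangles are replicates 1 and 2 and the bar is the mean of 4; Mt1 lies between 6797 and 10165 in knockout mice with estrogen, above all knockout vehicle mice, while Pdk4 spans 358 to 10935 in the same group.

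Fkbp5, the receptor's co-chaperone, had the smallest p-value of the 10 genes in wild type. Its signals were 1918, 1857, 1380 and 2082 in knockout mice with estrogen (replicates 1 to 4, the order used throughout), against 1629, 1499, 1446 and 1149 in knockout mice with vehicle. They were 1344, 2157, 3310 and 2059 in wild-type mice with estrogen, against 954, 1461, 892 and 938 in wild-type mice with vehicle. In wild type the groups overlapped through vehicle replicate 2 alone, which lay above estrogen replicate 1. The means were 1809 ± 302 and 1431 ± 203 in the knockout, and 2217 ± 814 and 1061 ± 268 in wild type, estrogen before vehicle (SD, n = 4 each). Estrogen minus vehicle was 0.33 ± 0.23 (SE) in the knockout (adjusted p = 0.982) and 1.01 ± 0.23 in wild type (adjusted p = 0.239), and the difference between these responses did not pass (−0.68 ± 0.33, adjusted p = 0.66). In the knockout the difference was 0.39 in replicates 3 and 4 and 0.27 in replicates 1 and 2, and in wild type it was 1.5 in replicates 3 and 4 and 0.52 in replicates 1 and 2. By replicate number, which the labels do not give as a pairing, estrogen exceeded vehicle in 3 of 4 knockout and 4 of 4 wild-type pairs.

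A dimmer Fkbp5 probe set, 1448231_at, differed by more than the bright one, 1416125_at. It gave 391, 445, 239 and 147 in knockout mice with estrogen, against 58.2, 83.6, 58.4 and 55.5 in knockout mice with vehicle. In wild-type mice it gave 171, 403, 567 and 128 with estrogen, against 76.9, 231, 103 and 47.7 with vehicle. All 4 knockout estrogen mice lay above all knockout vehicle mice on this probe set, whereas the wild-type groups overlapped. In the fit over all 45037 probe sets its log2 difference was 1.91 ± 0.47 in the knockout (adjusted p = 1) and 1.31 ± 0.47 in wild type (adjusted p = 0.676). The probe sets of Fkbp5 thus differ in which genotype showed the larger value, and the response difference on the dim one was 0.60 ± 0.67 (adjusted p = 0.953), opposite in sign to that of the bright one. The last Fkbp5 probe set, 1447736_at, stayed at 24.4 or below on every array.

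Mt1 and Mt2, the metallothioneins that bind zinc and copper, were the only genes of the 10 with estrogen above vehicle by replicate number in 4 of 4 pairs of both genotypes. How many of all genes did so was not counted, and the labels do not say that a shared number pairs mice. Deviations of same-numbered arrays from their group means correlated at a median of 0.324, beside 0.369 for differently numbered arrays of a set. Mt1 gave 6797, 10165, 9241 and 9914 in knockout mice with estrogen, against 4804, 4306, 5230 and 5385 in knockout mice with vehicle. It gave 6360, 17279, 13103 and 7280 in wild-type mice with estrogen, against 5724, 8821, 5364 and 6096 in wild-type mice with vehicle. Every knockout estrogen mouse exceeded every knockout vehicle mouse, and the wild-type groups overlapped through vehicle replicate 2. The mean signals of Mt1 were 9029 ± 1538 and 4931 ± 484 in the knockout and 11010 ± 5138 and 6501 ± 1575 in wild type, estrogen before vehicle (SD, n = 4 each). Its log2 difference was 0.86 ± 0.27 in the knockout (adjusted p = 0.982), 0.67 ± 0.27 in wild type (adjusted p = 0.488) and 0.76 ± 0.19 over both (adjusted p = 0.299). In replicates 3 and 4, and then in replicates 1 and 2, the values were 0.85 and 0.87 in the knockout and 0.77 and 0.56 in wild type, so the sign was the same in both sets of both genotypes.

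Mt2 gave 6528, 8198, 5725 and 5269 in knockout mice with estrogen, against 4023, 4417, 4072 and 3642 in knockout mice with vehicle. It gave 5055, 16442, 8598 and 4140 in wild-type mice with estrogen, against 4928, 5611, 3021 and 3662 in wild-type mice with vehicle. The knockout groups were again apart and the wild-type groups overlapped. By the probe set that stood for each gene, Mt1 and Mt2 were the 2 of 10 whose knockout groups did not overlap (1.52% of all genes did so upward), and 0 of 10 did so in wild type (2.21%). The log2 difference of Mt2 was 0.65 ± 0.33 in the knockout (adjusted p = 0.982) and 0.82 ± 0.33 in wild type (adjusted p = 0.485). Wild-type estrogen replicate 2, 1 of the 3 arrays of high spike-in signal, was the highest array for both genes. Without it the wild-type differences were 0.43 for Mt2 and 0.41 for Mt1. The second Mt1 probe set, 1451612_at, was dim, at 78.4 to 255 over all arrays, and differed by 0.09 in the knockout and 0.11 in wild type.

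Pdk4, the kinase that switches off pyruvate dehydrogenase and spares glucose, had the widest spread. It gave 10935, 3635, 554 and 358 in knockout mice with estrogen, against 1223, 2353, 525 and 416 in knockout mice with vehicle. It gave 2107, 2489, 3071 and 389 in wild-type mice with estrogen, against 2300, 1670, 560 and 511 in wild-type mice with vehicle. The high values lay in replicates 1 and 2 of each group, with wild-type estrogen replicate 3 as the exception among replicates 3 and 4. Estrogen minus vehicle was 0.91 ± 0.94 in the knockout (adjusted p = 0.982) and 0.62 ± 0.94 in wild type (adjusted p = 0.898). Without knockout estrogen replicate 1, which also had the highest sum of muscle genes, the knockout difference was 0.015. In replicates 3 and 4, and then in replicates 1 and 2, it was −0.07 and 1.88 in the knockout and 1.02 and 0.22 in wild type.

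Sgk1, a kinase that regulates ion channels and cell survival, gave 4146, 2774, 1501 and 1145 in knockout mice with estrogen, against 1884, 2180, 1640 and 1409 in knockout mice with vehicle. It gave 2321, 2026, 2347 and 1147 in wild-type mice with estrogen, against 2006, 1849, 1774 and 1497 in wild-type mice with vehicle. Both estrogen groups reached above and below their vehicle groups, and the log2 differences were 0.26 ± 0.32 in the knockout (adjusted p = 0.982) and 0.09 ± 0.32 in wild type (adjusted p = 0.969). Without knockout estrogen replicate 1 the knockout difference was −0.06.

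Ddit4, which restrains the growth regulator mTORC1, gave 785, 2961, 2928 and 1805 in knockout mice with estrogen, against 1602, 1478, 1787 and 1653 in knockout mice with vehicle. It gave 1711, 1615, 4467 and 1050 in wild-type mice with estrogen, against 402, 907, 1802 and 1618 in wild-type mice with vehicle. Knockout vehicle mice lay close together, at 1630 ± 128, whereas the other groups spread widely, at 2120 ± 1039 in knockout mice with estrogen, 2211 ± 1532 in wild-type mice with estrogen and 1182 ± 648 in wild-type mice with vehicle (SD, n = 4 each). Its log2 difference was 0.20 ± 0.49 in the knockout (adjusted p = 0.986) and 0.89 ± 0.49 in wild type (adjusted p = 0.639), and without wild-type vehicle replicate 1 the wild-type value was 0.45.

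Tsc22d3, a leucine zipper protein that damps inflammatory signalling, gave 9203, 6201, 3776 and 2783 in knockout mice with estrogen, against 3979, 5060, 3418 and 3368 in knockout mice with vehicle. It gave 3790, 4273, 5292 and 3423 in wild-type mice with estrogen, against 3082, 3381, 3764 and 3628 in wild-type mice with vehicle. The groups overlapped in both genotypes. The log2 difference was 0.34 ± 0.28 in the knockout (adjusted p = 0.982) and 0.26 ± 0.28 in wild type (adjusted p = 0.849), and without knockout estrogen replicate 1 the knockout value was 0.045. Of its other probe sets, 1425281_a_at differed by 0.38 and 0.42 in the knockout and in wild type, 1425557_x_at by 0.00 and −0.07, and 1444365_at by 0.13 and −0.36, all with overlap.

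Zbtb16, a zinc finger repressor of transcription, gave 3097, 1501, 546 and 494 in knockout mice with estrogen, against 667, 983, 394 and 372 in knockout mice with vehicle. It gave 911, 934, 1110 and 542 in wild-type mice with estrogen, against 961, 1488, 379 and 408 in wild-type mice with vehicle. Within the knockout, both sets had estrogen above vehicle, while in wild type only replicates 3 and 4 did. The log2 difference was 0.91 ± 0.54 in the knockout (adjusted p = 0.982) and 0.29 ± 0.54 in wild type (adjusted p = 0.924). Without knockout estrogen replicate 1 the knockout value was 0.40, and without wild-type vehicle replicate 3 the wild-type value was 0.014. In replicates 3 and 4, and then in replicates 1 and 2, it was 0.42 and 1.40 in the knockout and 0.95 and −0.37 in wild type. Its dimmer probe sets gave 0.59 (1419874_x_at) and 0.48 (1427638_at) in the knockout and 0.22 and 0.79 in wild type.

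Klf9, a zinc finger factor that also responds to thyroid hormone, followed the same arrays as Zbtb16. It gave 6247, 2791, 1738 and 1610 in knockout mice with estrogen, against 1806, 1864, 1431 and 1070 in knockout mice with vehicle. It gave 2469, 2076, 2673 and 2198 in wild-type mice with estrogen, against 2675, 3104, 1528 and 1334 in wild-type mice with vehicle. The wild-type estrogen mice lay in a narrow range inside that of the vehicle mice. The log2 difference was 0.81 ± 0.36 in the knockout (adjusted p = 0.982) and 0.21 ± 0.36 in wild type (adjusted p = 0.918), and without knockout estrogen replicate 1 the knockout value was 0.39. The bright Klf9 probe sets 1428289_at and 1456341_a_at gave 0.68 and 0.94 in the knockout and 0.15 and 0.18 in wild type. The other four Klf9 probe sets averaged 74.0 to 127 over the arrays, and their differences ran from −0.28 to 0.81 in the knockout and from −0.08 to 0.33 in wild type.

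Cebpd, a leucine zipper transcription factor of the acute phase and of adipocyte formation, lay nearest to 0 in the knockout and in the average by its bright probe set. It gave 3778, 3826, 2413 and 2804 in knockout mice with estrogen, against 3071, 3368, 2982 and 3412 in knockout mice with vehicle. It gave 3539, 4777, 1916 and 3073 in wild-type mice with estrogen, against 2669, 2728, 2895 and 3276 in wild-type mice with vehicle. Replicates 1 and 2 with estrogen lay above their vehicle mice and replicates 3 and 4 below or among them, in both genotypes. The log2 difference was −0.03 ± 0.22 in the knockout (adjusted p = 0.994) and 0.13 ± 0.22 in wild type (adjusted p = 0.91). In replicates 3 and 4, and then in replicates 1 and 2, it was −0.29 and 0.24 in the knockout and −0.34 and 0.61 in wild type. The dim probe set 1456605_at went the other way in wild type, at 146 ± 77.0 with estrogen and 245 ± 43.1 with vehicle (SD, n = 4 each), without overlap and at −0.89 ± 0.39 (adjusted p = 0.794).

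**Figure D2:**
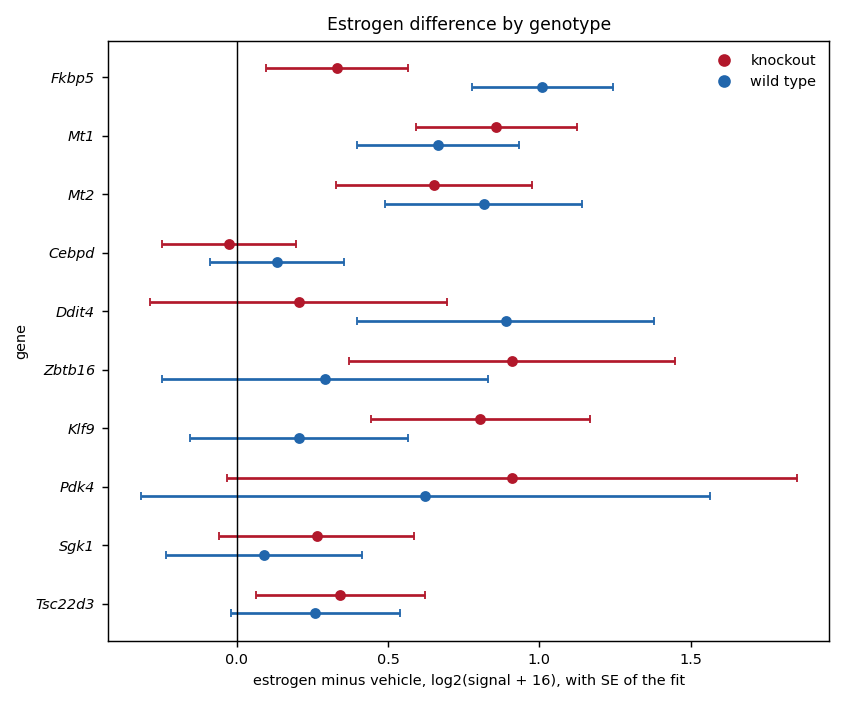
Estrogen minus vehicle on the log2(signal + 16) scale for the 10 genes, in the knockout (upper point of each pair) and in wild type (lower point), with bars of 1 SE of the limma fit. Fkbp5 in wild type lies at 1.01 and Mt1 in the knockout at 0.86, while Pdk4 has the longest bars, at 0.94 to each side.

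**Figure D3:**
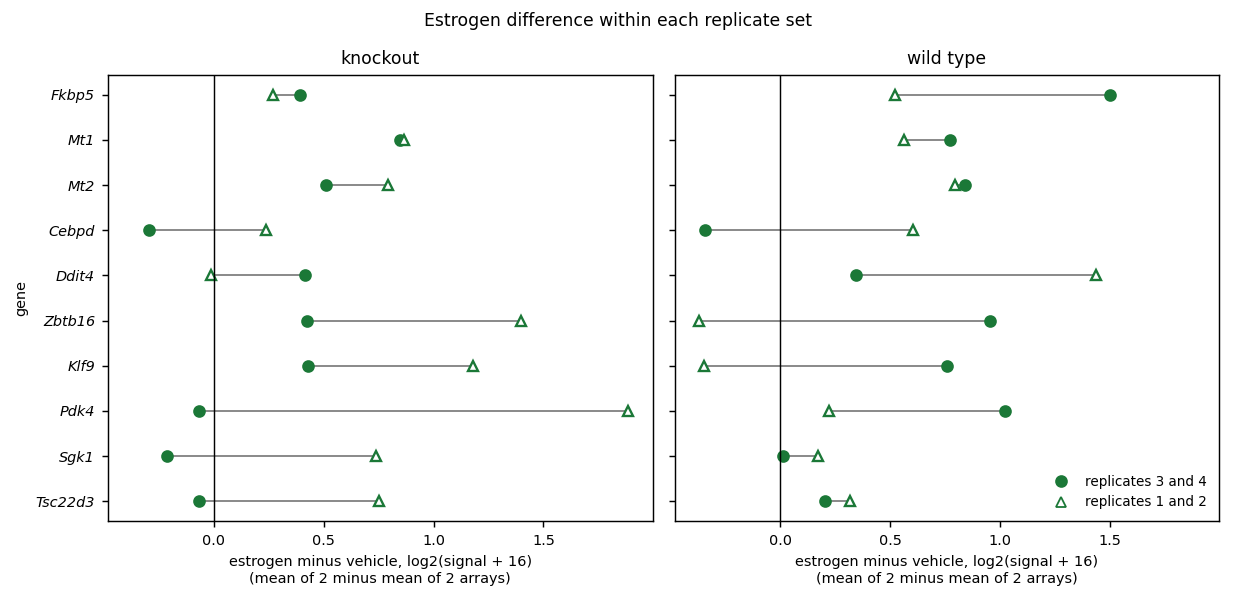
Estrogen minus vehicle within replicates 3 and 4 (filled circles) and within replicates 1 and 2 (open triangles), each point the mean of 2 arrays minus the mean of 2 arrays on the log2(signal + 16) scale. Mt1, Mt2 and Fkbp5 lie above 0 in both sets of both genotypes, and Pdk4 in the knockout lies at 1.88 in replicates 1 and 2 and at −0.07 in replicates 3 and 4.

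The highest array of each gene was an estrogen array for 10 of 10 genes, as it was for 62.6% of all genes. These highest values lay on 3 arrays, which held the highest value of 35.7% of all genes. The 3 arrays were picked from the values of the 10 genes, so that share carries no test of them. Knockout estrogen replicate 1 was highest for Pdk4, Sgk1, Klf9, Tsc22d3 and Zbtb16 (15.6% of all genes). Wild-type estrogen replicate 2 was highest for Mt1, Mt2 and Cebpd (8.76% of all genes), and wild-type estrogen replicate 3 for Fkbp5 and Ddit4 (11.3%). The first and second of these arrays were among the 3 of high spike-in signal, and the last was not, at a spike-in signal of 3273 and an Actb ratio of 1.25. Wild-type estrogen replicate 3 had a muscle sum of 26070, within the range of replicates 3 and 4 (5188 to 45286), beside Pdk4 at 3071 and Zbtb16 at 1110. The part of RNA quality and tissue makeup in these values was not tested.

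**Figure D4:**
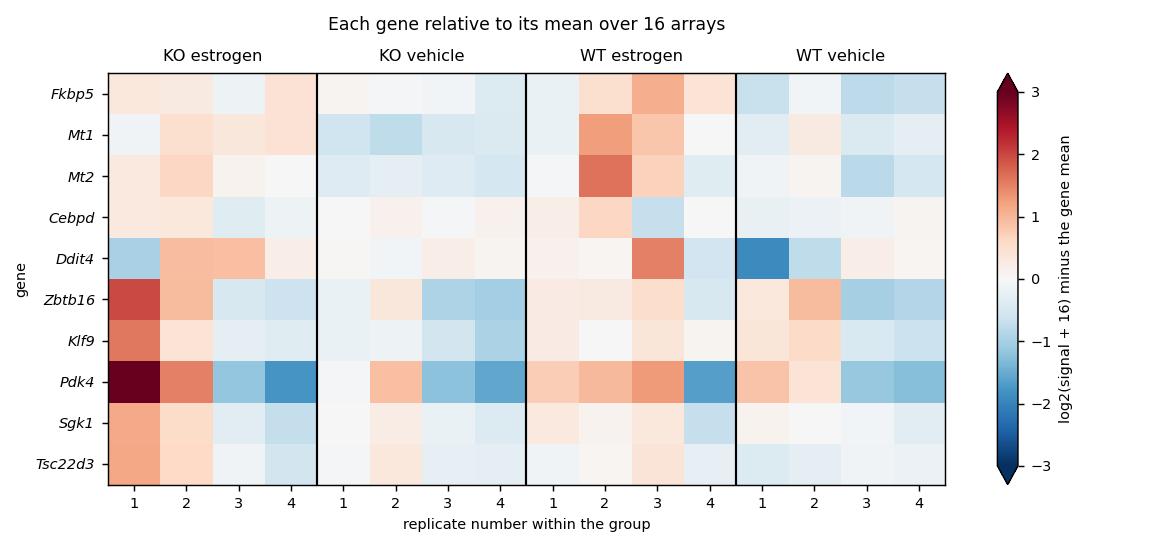
Each gene's log2(signal + 16) minus its mean over 16 arrays (colour scale from −3 to 3, values beyond it shown at its ends), with genes in rows and arrays in columns by group and replicate number. The highest cell of Pdk4, Zbtb16 and Klf9 lies in knockout estrogen replicate 1, that of Mt1 and Mt2 in wild-type estrogen replicate 2, and that of Fkbp5 and Ddit4 in wild-type estrogen replicate 3.

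No difference between knockout and wild-type mice passed the test for any of the 10 genes. The difference between the estrogen responses, knockout minus wild type, passed for 0 of 10 genes in limma, at the adjusted threshold (0% of all genes) and at an unadjusted p under 0.05 (7.61% of all genes). It ran from −0.69 ± 0.70 for Ddit4 (adjusted p = 0.817) to 0.62 ± 0.76 for Zbtb16 (adjusted p = 0.852), with a median of 0.13 beside 0.01 over all genes. Knockout minus wild type was likewise called for 0 of 10 genes in limma under vehicle (0% of all genes adjusted, 3.55% unadjusted), after estrogen (0% and 6.71%) and over both treatments (0% and 3.02%). Under vehicle Ddit4 stood at 0.67 ± 0.49 (adjusted p = 0.95), Fkbp5 at 0.44 ± 0.23 (adjusted p = 0.95), Klf9 at −0.43 ± 0.36 (adjusted p = 0.95) and Mt1 at −0.38 ± 0.27 (adjusted p = 0.95). After estrogen the 10 genes lay between −0.24 for Fkbp5 and 0.32 for Zbtb16. The medians over the 10 genes were −0.03 under vehicle and 0.04 after estrogen, beside 0.00 and 0.02 over all genes. These comparisons and the estrogen comparisons share arrays, so they are not independent of each other.

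Calls among the 10 genes came only in the comparison of the replicate sets. Replicates 3 and 4 were lower than replicates 1 and 2 for Pdk4, Zbtb16, Klf9 and Sgk1, 4 of 10 genes at the adjusted threshold in limma, with 9.38% of all genes called lower, and 0 of 10 were called higher, with 9.18% of all genes. Pdk4 averaged 798 ± 922 in replicates 3 and 4 and 3339 ± 3148 in replicates 1 and 2 (SD, n = 8 each), a log2 difference of −2.12 ± 0.40 (adjusted p = 0.00188). Zbtb16 differed by −1.22 ± 0.23 (adjusted p = 0.00183), Klf9 by −0.70 ± 0.19 (adjusted p = 0.0166) and Sgk1 by −0.60 ± 0.17 (adjusted p = 0.0227). The Klf9 call was lost with the mean of all its probe sets (−0.42, adjusted p = 0.0675), and the Sgk1 call once the 3 arrays of highest spike-in level were dropped (−0.55, adjusted p = 0.0505). Mt2 (−0.45, adjusted p = 0.121), Tsc22d3 (−0.34, adjusted p = 0.197), Cebpd (−0.28, adjusted p = 0.17) and Ddit4 (0.65, adjusted p = 0.146) did not pass. Fkbp5 at −0.05 and Mt1 at 0.00 lay nearest to 0.

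The median of the muscle list differed by more than any of the 10 genes in the same contrast. Earlier results of these data had already shown the sets to differ in muscle genes. The muscle calls therefore describe the sets and are no test of them. In replicates 3 and 4, 18 of 18 muscle genes were called lower (median log2 difference −4.11), as were 6 of 7 tested adipocyte genes (median −1.52). The sets also differed in other cell types. Of 10 osteoclast genes, 8 were called higher and 0 lower in replicates 3 and 4 (median 0.95). Their summed signal was 47158 to 70692 there and 23734 to 44609 in replicates 1 and 2. Of 11 neutrophil genes, 6 were called lower and 0 higher in replicates 3 and 4. Trim63, a muscle ubiquitin ligase that glucocorticoids are known to induce, was also called lower (log2 difference −3.55, adjusted p = 0.000268). Pdk4 and Klf9 are themselves expressed in skeletal muscle, and the part of muscle RNA in their values was not tested. The part of the other cell types in the calls among the 10 genes was not tested either. Fkbp5, Mt1 and Mt2, the genes of smallest p in the estrogen comparison, showed no call between the sets. Estrogen left the muscle list without a call in either genotype, at medians of 1.16 in the knockout and −1.002 in wild type, with 18 of 18 and 1 of 18 genes above 0.

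**Figure D5:**
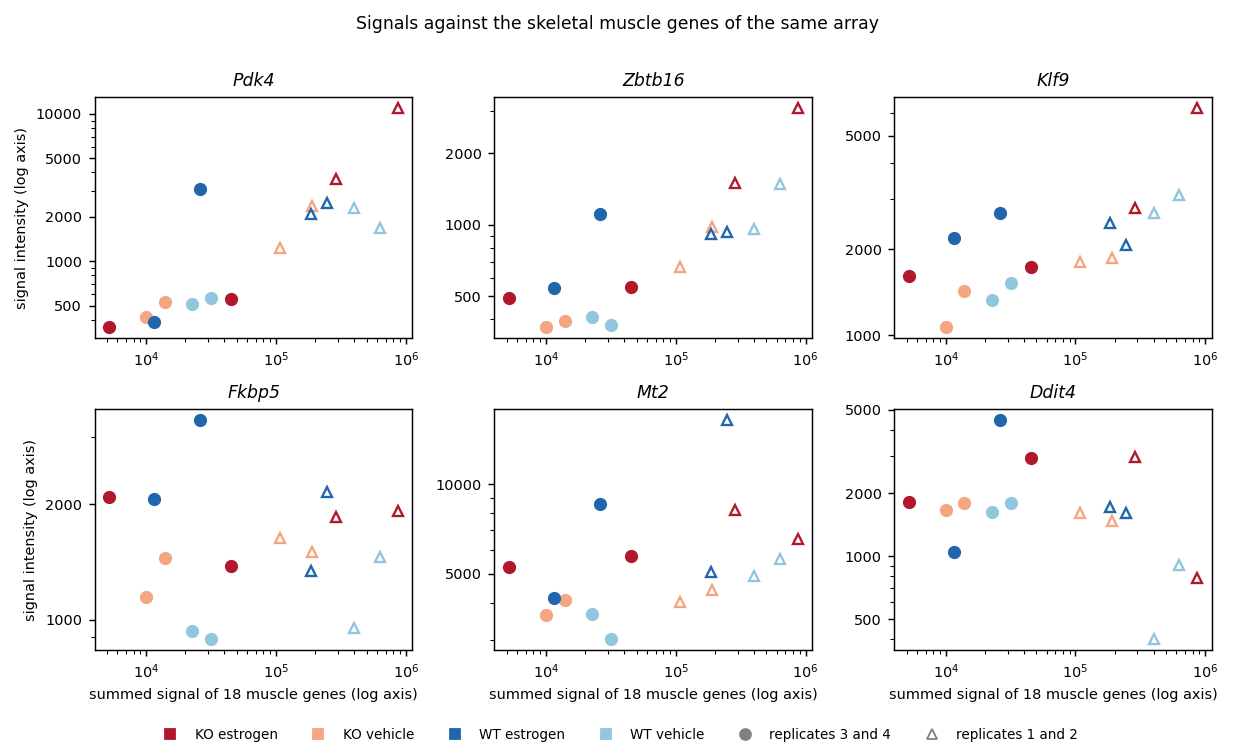
Signal of 6 of the genes against the summed signal of 18 skeletal muscle genes on the same array (both axes log), coloured by group, with filled circles for replicates 3 and 4 and open triangles for replicates 1 and 2. Muscle sums reach at most 45286 in replicates 3 and 4 and start at 107802 in replicates 1 and 2, and Pdk4, Zbtb16 and Klf9 have their highest value where the muscle sum is 868911, whereas Fkbp5 and Mt2 do not.

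The receptor's own machinery was read from a further list. Of 7 tested genes of the receptor, its chaperones, coregulators and steroid-converting enzymes, 0 passed the adjusted threshold after estrogen in limma. An unadjusted p under 0.05 was reached by 622 of all 12735 genes in the knockout and by 1102 in wild type. Of the 7 genes, it was reached by 0 in the knockout and by 1 in wild type. That gene was Hsd11b1, the enzyme that regenerates active glucocorticoid inside cells. Hsd11b1 gave 1342, 1168, 1842 and 2466 in knockout mice with estrogen, against 1569, 1252, 1586 and 1933 in knockout mice with vehicle, and 1843, 2583, 3431 and 1758 in wild-type mice with estrogen, against 1323, 994, 1450 and 1500 in wild-type mice with vehicle. All wild-type estrogen mice lay above all wild-type vehicle mice, and the knockout groups overlapped. The log2 difference of Hsd11b1 was 0.06 ± 0.25 in the knockout (adjusted p = 0.991) and 0.82 ± 0.25 in wild type (adjusted p = 0.315), and the difference between the responses was −0.76 (adjusted p = 0.648). Nr3c1, the receptor gene itself, stood at 0.03 ± 0.19 in the knockout and −0.34 ± 0.19 in wild type, and the coactivator gene Ncoa2 at −0.07 ± 0.15 and −0.13 ± 0.15.

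Among 37 other tested genes known as glucocorticoid targets, 23 were above 0 in the knockout and 30 in wild type, with medians of 0.15 and 0.19, and 0 passed the adjusted threshold in limma. Of all 12735 genes, 51.4% were above 0 in the knockout and 47.8% in wild type. At an unadjusted limma p under 0.05, 212 of the 12735 were higher and 410 lower in the knockout, and 494 and 608 in wild type. At that p, 4 of the 37 targets were higher and 1 lower in the knockout, and 1 was higher and 1 lower in wild type. Il1r2, the decoy receptor for interleukin 1, was the gene higher in wild type. Il1r2 gave 1445, 2309, 1013 and 1903 in knockout mice with estrogen, against 978, 1158, 998 and 1230 in knockout mice with vehicle, and 1920, 5780, 10087 and 1910 in wild-type mice with estrogen, against 1157, 882, 1016 and 1104 in wild-type mice with vehicle. The wild-type groups were apart, with estrogen replicates 2 and 3 far above the rest. The log2 difference of Il1r2 was 0.55 ± 0.41 in the knockout (adjusted p = 0.982) and 1.87 ± 0.41 in wild type (adjusted p = 0.204). Cdkn1c, a cell cycle inhibitor named after its values were seen, was the gene lower in wild type. Cdkn1c averaged 366 ± 89.7 in knockout mice with estrogen and 405 ± 91.4 in knockout mice with vehicle, and 225 ± 105 in wild-type mice with estrogen and 683 ± 192 in wild-type mice with vehicle (SD, n = 4 each). Its log2 difference was −0.145 ± 0.295 in the knockout (adjusted p = 0.983) and −1.578 ± 0.295 in wild type (adjusted p = 0.124), and the difference between the responses did not pass (1.43, adjusted p = 0.637). Trim63 and Fbxo32, ubiquitin ligases of muscle wasting, stood at 2.01 ± 1.47 and 1.61 ± 0.62 in the knockout and at 1.26 ± 1.47 and 0.53 ± 0.62 in wild type. Trim63 reached 6078 and Fbxo32 reached 2213 in knockout estrogen replicate 1, the array with the highest muscle sum. Between the replicate sets, 9 of the 37 targets were called lower in replicates 3 and 4 and 2 higher.

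Genes that glucocorticoids are known to repress showed no shared direction. Of 8 tested, 4 were above 0 in the knockout and 5 in wild type, beside 51.4% and 47.8% of all genes, and 0 passed the adjusted threshold in limma. At an unadjusted p under 0.05, 2 were lower in the knockout and 1 higher in wild type. Of all 12735 genes, 410 were lower in the knockout and 494 higher in wild type at that p. Il1b, an inflammatory cytokine, gave 562, 467, 382 and 192 in knockout mice with estrogen, against 902, 1315, 767 and 1080 in knockout mice with vehicle (−1.38 ± 0.45, adjusted p = 0.982). In wild-type mice Il1b gave 1435, 762, 212 and 549 with estrogen, against 627, 659, 1382 and 1114 with vehicle (−0.56 ± 0.45, adjusted p = 0.777). The chemokine gene Cxcl10 stood at −1.83 ± 0.72 in the knockout (adjusted p = 0.982) and −0.02 ± 0.72 in wild type, and the cytokine gene Tnf at 0.87 ± 0.52 in the knockout and 1.23 ± 0.52 in wild type (adjusted p = 0.519).

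Relatives of the 10 genes were read in the same way. Of 22 tested paralogs, 8 were above 0 in the knockout and 14 in wild type, beside 51.4% and 47.8% of all genes, and none passed the adjusted threshold in limma. At an unadjusted p under 0.05 the counts were 0 in the knockout and 2 higher and 1 lower in wild type. Of all 12735 genes, 622 had such a p in the knockout, and 494 were higher and 608 lower in wild type. Cebpb, a leucine zipper factor of the same family as Cebpd, gave 4511, 9124, 4646 and 5771 in knockout mice with estrogen, against 4229, 5672, 4358 and 4658 in knockout mice with vehicle. Cebpb gave 7247, 8953, 10072 and 4099 in wild-type mice with estrogen, against 3193, 2431, 4442 and 4400 in wild-type mice with vehicle, so that replicate 4 with estrogen fell among the vehicle mice. Its log2 difference was 0.29 ± 0.28 in the knockout (adjusted p = 0.982) and 1.03 ± 0.28 in wild type (adjusted p = 0.262). Klf13 stood at 0.23 ± 0.31 and 0.35 ± 0.31, and Cebpa at 0.18 ± 0.20 and 0.36 ± 0.20, in the knockout and in wild type. Of the 8 tested genes of zinc handling, 1 was above 0 in the knockout and 2 were above 0 in wild type, beside 51.4% and 47.8% of all genes, with medians of −0.14 and −0.16 and 0 passing the adjusted threshold in limma (at an unadjusted p under 0.05, 0 in the knockout and 1 lower in wild type). Slc30a1, a zinc exporter that MTF-1 is known to induce, stood at −0.56 ± 0.50 in the knockout and −0.61 ± 0.50 in wild type. Slc39a10 stood at −0.07 ± 0.26 and −0.67 ± 0.26, and Slc30a10 at −0.29 ± 0.37 and −0.37 ± 0.37. The list was not sorted by the direction in which zinc moves each gene. Its count and median are therefore no test of a metal response, and the part of metal in Mt1 and Mt2 was not tested.

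Over the 16 arrays, with values centred within each replicate set, several of the 10 genes followed each other. Mt1 and Mt2 had a Pearson correlation of 0.94, Sgk1 and Pdk4 of 0.91, Klf9 and Zbtb16 of 0.92, and Tsc22d3 and Sgk1 of 0.88. Pdk4 also followed Zbtb16 (0.85) and Tsc22d3 (0.84), while Fkbp5 reached at most 0.69 (with Mt2) and Ddit4 at most 0.46 (with Fkbp5). Mt1 and Pdk4 followed each other less, at 0.345, and Cebpd correlated with the other nine genes at −0.30 to 0.11. Arrays share group, tissue makeup and scaling, so these values describe the arrays and carry no test. The tested genes most like each of the 10, by the same measure, were Got2 (0.88) and Tubg1 (0.83) for Fkbp5, Slc2a1 for Mt1 and Mt2 (0.93 each) after their own pair, and Vdr (0.85) and Thrap3 (0.84) for Ddit4. They were Galnt15 (0.94) and Adam9 (0.92) for Pdk4, Nrap (0.93) and Ndrg2 (0.92) for Zbtb16, Zbtb16 (0.92) and Ndrg2 (0.92) for Klf9, and Oas2 (0.85) and Zbtb8a (0.85) for Cebpd. For Sgk1 they were Pdk4 (0.91) and Tsc22d3 (0.88), and for Tsc22d3 they were Sgk1 (0.88) and Pdk4 (0.84). Spearman rank correlations, which weigh single extreme arrays less, ran from 0.603 (Adam9 with Pdk4) to 0.926 (Mt1 with Mt2) over these pairs. They were 0.797 for Nrap and 0.771 for Ndrg2 with Zbtb16, and 0.747 for Sgk1 with Tsc22d3. Only Tubg1 with Fkbp5 (0.838), Thrap3 with Ddit4 (0.903) and Oas2 with Cebpd (0.859) exceeded their Pearson values.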

How the data were processed

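Expression was measured on 16 Affymetrix arrays in 4 groups of 4 mice. Each deposited value is a signal intensity of 1 probe set on a linear scale, which the authors obtained from GCOS according to the submitters' processing notes. The sources used here give no software version, background step or detection call. Every array already had a 2% trimmed mean of 500, and no further normalization was applied. The series design text, not the labels, names the vehicle of the knockout mice.

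Gene symbols came from the platform annotation (34958 probe sets had 1 symbol, and 932 with several were left unnamed), updated by Entrez identifier to RefSeq for 34754. Of 45101 probe sets, 64 controls were left out. The brightest probe set stood for its gene, and the dimmest 30% of 18193 genes (mean signal under about 121) were dropped, leaving 12735. Further probe sets of the 10 genes come from a fit over all 45037. Group means of log2(signal + 16) were modelled with limma 3.58.1 (R 4.3.3, 12 residual degrees of freedom, variance trend). P-values were two-sided with Benjamini-Hochberg adjustment. Replicate sets were compared with a set term (11 residual degrees of freedom). The fit was checked on simulated data.

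The genes, lists and tests were chosen with earlier results of these data known. Named genes were the 10, the 3 tested genes of each further list with the largest absolute average estrogen difference, and the 2 nearest genes of each of the 10. Esr1, as the deleted gene, and Cdkn1c, after its values were seen, were named beside them. Arrays of the same replicate number deviated together from their group means in all 24 pairs across groups (correlation 0.19 to 0.603, median 0.324), above the 0.1 set for pairing. Differently numbered arrays within a set had a median of 0.369.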

Additional observations from a re-analysis of the deposited data

Results flagged for a closer look

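Fkbp5 in wild-type vehicle replicate 2 stood apart from its group. Its signal was 1461, the next highest of the 4 mice was 954, and the gap was 0.891 of the range of the group, above Dixon's critical value for a group of 4. This array also had the highest spike-in signal, 25112, and the highest Actb 3′ to 5′ ratio, 3.53, and its part in the value was not tested. Of 40 groups examined (10 genes in 4 groups), this was the only value past the limit, and chance flags about 1 in 20 groups. Without this array the wild-type estrogen difference of Fkbp5 was 1.17 (adjusted p = 0.303).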

How the results depend on the processing

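None of the 10 genes passed the adjusted threshold in limma in 210 fits of the estrogen, response and genotype differences, all settings run (lowest adjusted p = 0.0727, Mt1 in the average with array weights), and the estrogen and set values, with the response differences of Fkbp5, Zbtb16 and Ddit4, kept direction and side of the threshold in 486 comparisons apart from single arrays left out, while 30 changed sign, 1 gained a call and 2 lost one. With 4 mice a group, intensities without detection calls and bulk bone, moderate changes could not be separated from spread. The cause of the changes below was not tested.

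With the replicate number as a block, 4 of the 10 genes had an unadjusted p under 0.05 in the knockout, 4 in wild type (Ddit4 joined; 4.95% of all genes higher) and 5 in the average, and this pairing changed no call at the adjusted threshold for them. The set term gave the same 4 and 5, with genes passing at 5 in wild type, 1 in the knockout, 8 in the average and 1 for knockout minus wild type averaged over treatments. Genes passing in the knockout were also 1 with the lowest 50% of genes left out, with quantile normalization, with the mean of probe sets and with array weights. With the mean of probe sets, Cebpd stood at 0.123 in the knockout, −0.379 in wild type, −0.128 in the average and 0.178 between sets. In that fit 1 gene of the 10 had an unadjusted p under 0.05 in the knockout (4.33% of all genes). For knockout minus wild type after estrogen the count was also 1 (5.98% of all genes), and Klf9 lost its call between sets (−0.422). With array weights, genes passing were 5 in wild type, 6 in the average and 1 for genotype under vehicle. The 10 genes' counts at an unadjusted p under 0.05 were then 5 in the average, 1 for the response difference and 1 for genotype under vehicle. Of all genes 10.7%, 11.4% and 11% had such a p there, beside 6.14%, 7.61% and 3.55% in the main fit. The median response difference was −0.291. Array weights also put Sgk1 at −0.039 in the knockout, Cebpd at −0.025 in the average, the response difference of Zbtb16 at −0.513 and of Ddit4 at 0.134, and Ddit4 gained a call between sets (0.738).

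Within replicates 3 and 4, Tsc22d3 stood at −0.065, Pdk4 at −0.067 and Sgk1 at −0.211 in the knockout, Cebpd at −0.342 in wild type, Sgk1 at −0.100 and Cebpd at −0.317 in the average, and the response differences were −0.530 for Zbtb16, 0.074 for Ddit4 and −0.298 in the median, with a median of −0.356 for genotype after estrogen. The counts at an unadjusted p under 0.05 there were 1 in the knockout, 5 in wild type, 5 in the average and 1 each for the response difference and for genotype after estrogen and averaged, where 3.49%, 11.7%, 10.5%, 3.97%, 6.78% and 4.54% of all genes had one. Within replicates 1 and 2, Ddit4 stood at −0.010 and Cebpd at 0.240 in the knockout, and Zbtb16 at −0.369 and Klf9 at −0.346 in wild type. The counts there were 5 in the knockout (10.6% of all genes), 6 in the average (3.35%), 3 for the response difference (16.5%), and 1, 5 and 1 for genotype under vehicle, after estrogen and averaged (9.01%, 12.2% and 4.15%), with 5 genes passing for the response difference and 0 for the average.

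Without the 3 arrays of highest spike-in signal, Sgk1 stood at −0.059 in the knockout, Cebpd at −0.093 in wild type and −0.103 in the average, the response difference of Zbtb16 at −0.211, and Fkbp5 at 0.077 and Sgk1 at −0.551 (call lost) between sets. Genes passing were then 2 in the knockout and 1325 between sets, beside 2364 with all arrays. The counts at an unadjusted p under 0.05 were 1 for the response difference (4% of all genes) and 1 for genotype under vehicle (2.69%). Leaving out knockout estrogen replicate 1 and wild-type estrogen replicate 3 together, chosen after seeing the data, put Sgk1 at −0.059 in the knockout, −0.014 in wild type and −0.037 in the average, the Ddit4 response difference at 0.137 and Mt1 between sets at −0.150. Genes passing were then 1 in the knockout and 1 in the average. The counts at an unadjusted p under 0.05 were 1 in the knockout, 1 in wild type, and 1 each for genotype under vehicle and averaged. Of all genes 3.36%, 8.97%, 5.79% and 4.72% had such a p there.

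With single arrays left out, Sgk1 ranged over −0.059 to 0.555 in the knockout and −0.014 to 0.327 in wild type, Ddit4 over −0.015 to 0.616 in the knockout, and Cebpd over −0.120 to 0.101, −0.066 to 0.371 and −0.046 to 0.172 in the knockout, in wild type and in the average. Between sets the range was −0.166 to 0.039 for Fkbp5 and −0.119 to 0.143 for Mt1. The count of the 10 genes at an unadjusted p under 0.05 ranged over 1 to 4 in the knockout, 1 to 4 in wild type and 3 to 5 in the average. The share of all genes ranged there over 2.58% to 6.64%, 7.46% to 11.1% and 4.86% to 8.09%. In each genotype comparison and the response difference the count was 0 to 1, with shares from 1.68% to 10.9% of all genes. The count was 1 in the knockout without its estrogen replicate 1 or 2 (2.58% and 4.84% of all genes). It was also 1 without its vehicle replicate 3 or 4 (4.36% and 3.53%), and 4 without its estrogen replicate 4 (6.64%). In wild type the count was 1 without estrogen replicate 2 or 3 of that genotype (7.5% and 7.46%), and 4 without its estrogen replicate 4 (11.1%). The average reached 5 without knockout estrogen replicate 4 (5.09%). Between sets, Ddit4 gained a call without wild-type estrogen replicate 4 (0.862, adjusted p = 0.036) and Mt2 without wild-type estrogen replicate 1 (−0.593, adjusted p = 0.0272).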
